A study of Mus musculus with 11 samples.

Results

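Polycomb repressive complex 2 (PRC2) was followed through the mRNAs of 10 genes: the catalytic subunits Ezh2 and Ezh1, the core partners Eed, Suz12, Rbbp4 and Rbbp7, and the accessory subunits Mtf2, Phf19, Jarid2 and Aebp2. They were chosen by symbol, and all 10 were found among the 46078 gene identifiers of each count file. RNA-seq counts came from 11 mouse libraries, all labelled strain CD-1, in a study of L3mbtl3, which encodes a chromatin reader that binds methylated lysines. L3mbtl3 gain denotes cells of wild-type embryos that were electroporated in utero with the plasmid pCIG2-L3mbtl3 at E12.5 and sorted for GFP at E15.5 (n = 3). GFP control denotes cells handled in that way after empty pCIG2 (n = 3). The other libraries came from whole E12.5 dorsal telencephalon, without electroporation or sorting: 2 labelled L3mbtl3 -/-, 2 labelled L3mbtl3 +/- and 1 labelled wild-type. The heterozygous and wild-type libraries served together as E12.5 controls (n = 3), as the study counts them. Only cells that took up plasmid, and their descendants that kept GFP, entered the sorted libraries. The labels do not say whether a library is 1 embryo or a pool, so p-values measure the spread between these libraries.

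PRC2 places methyl groups on histone H3 lysine 27 (H3K27), a mark of silenced developmental genes. Ezh2 or Ezh1 supplies the methyltransferase activity. Eed and Suz12 are needed for that activity, and the WD-repeat proteins Rbbp4 and Rbbp7 bind histones. Polycomb-like proteins (Mtf2, Phf19) and the pair Jarid2 and Aebp2 define alternative forms of the complex and guide it to chromatin. In the embryonic cortex, Ezh2 is known to be abundant in dividing progenitors and to decline as neurons form, whereas Ezh1 persists in cells that have stopped dividing.

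The genes lie on build GRCm38 as annotated in the count files, all protein-coding: Ezh2 at chr6:47530274-47595341 (minus strand, 6197 exon bases), Ezh1 at chr11:101191115-101226463 (minus strand, 7440 exon bases), Eed at chr7:89954656-89980983 (minus strand, 2218 exon bases), Suz12 at chr11:79993106-80034123 (plus strand, 4945 exon bases). The others are Rbbp4 (chr4:129307100-129335370), Rbbp7 (chrX:162760402-162779092), Mtf2 (chr5:108065674-108109004), Phf19 (chr2:34893757-34914026), Jarid2 (chr13:44729474-44921643) and Aebp2 (chr6:140622449-140678472). Exons of Ezh2, Eed, Suz12, Rbbp4, Rbbp7 and Mtf2 overlap those of other genes on the opposite strand only, and the counting used strand.

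Ezh2 and Ezh1 are shown first by their promoters, with Suz12 and Phf19, since these are the members in which a search for an E2F site found a match, beside Ezh1, the other catalytic subunit. The windows cover 250 bases before and 50 bases after the transcription start in RefSeq (build GRCm38.p6), where all 10 members were matched. E2F factors are known to drive genes used in S phase. The search covered the letters TTTCGCGC, TTTGGCGC, TTTCCCGC and TTTGCCGC on both strands. Capitals mark a match, and each sequence runs 5′ to 3′ along its gene's strand.
Ezh2 (chr6:47594981-47595280, minus strand): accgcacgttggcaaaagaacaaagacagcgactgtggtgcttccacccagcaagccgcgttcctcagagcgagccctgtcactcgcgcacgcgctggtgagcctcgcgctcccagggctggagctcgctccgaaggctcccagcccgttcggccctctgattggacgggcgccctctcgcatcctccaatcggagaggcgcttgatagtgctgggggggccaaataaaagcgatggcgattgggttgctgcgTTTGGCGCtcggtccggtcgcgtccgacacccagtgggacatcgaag
Suz12 (chr11:79992856-79993155, plus strand): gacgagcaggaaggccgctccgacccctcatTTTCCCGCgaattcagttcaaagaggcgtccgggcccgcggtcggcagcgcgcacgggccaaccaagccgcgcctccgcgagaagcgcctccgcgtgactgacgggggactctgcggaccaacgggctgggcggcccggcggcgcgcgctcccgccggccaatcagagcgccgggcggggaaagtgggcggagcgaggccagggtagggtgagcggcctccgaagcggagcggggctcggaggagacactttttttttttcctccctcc
Phf19 (chr2:34913927-34914226, minus strand): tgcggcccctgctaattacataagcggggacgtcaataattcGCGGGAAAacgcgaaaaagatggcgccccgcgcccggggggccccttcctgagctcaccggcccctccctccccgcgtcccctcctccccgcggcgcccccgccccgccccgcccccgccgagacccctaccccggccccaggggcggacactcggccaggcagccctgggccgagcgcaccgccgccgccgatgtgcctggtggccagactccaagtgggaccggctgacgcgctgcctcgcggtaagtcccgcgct
Ezh1 (chr11:101226414-101226713, minus strand): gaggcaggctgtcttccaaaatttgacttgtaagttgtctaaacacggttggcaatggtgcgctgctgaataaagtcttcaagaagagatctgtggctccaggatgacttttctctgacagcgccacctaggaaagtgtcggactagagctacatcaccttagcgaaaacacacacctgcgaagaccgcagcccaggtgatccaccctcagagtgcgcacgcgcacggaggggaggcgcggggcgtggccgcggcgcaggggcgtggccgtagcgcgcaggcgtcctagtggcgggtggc
The match in Ezh2 lay just after the start, that in Suz12 lay upstream, and that in Phf19 lay upstream on the opposite strand. No such letters were found in the Ezh1 window or in those of the other 6 members. Of 32851 mouse windows of the same length, 744 (2.26%) held at least 1 match. E2F was 1 of 4 motifs searched, on both strands. The 10 members have 14 windows, since Jarid2, Aebp2 and Mtf2 have more than 1 start, and 3 of the 14 held an E2F match. The CCAAT box (CCAAT) was in 9 of the 14, against 37.4% of mouse windows, and the cell cycle homology region (TTTGAA) in 4, against 17.9%. An NRF1 motif was in 0 of the 14, against 0.971%. A match describes these letters only. The motifs were chosen after the counts had been seen.

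Each library held 16527551 to 26658718 counts. Levels are CPM, counts scaled to a common library size with TMM factors over all 11 libraries, and a gene is called where the adjusted p of edgeR's quasi-likelihood test is under 0.05 over all genes tested. L3mbtl3 itself had 1517, 1262 and 898 CPM in the gain libraries, against 54.0, 50.3 and 59.98 CPM in the GFP control libraries (log2 fold change 4.49, SE 0.217, adjusted p = 0.00136). That call was lost without GFP control replicate 2 (adjusted p = 0.0539). In the libraries labelled L3mbtl3 -/- it was not lower but slightly higher, with 67.2 and 70.5 CPM against 55.8 and 58.0 CPM in heterozygotes and 58.3 CPM in the wild type (log2 fold change 0.27, SE 0.0539, adjusted p = 0.0128). That call was lost without knockout replicate 2 (adjusted p = 0.055), the female library of the pair, with a term for embryo sex (adjusted p = 0.0605) and with all 11 libraries in one fit (adjusted p = 1.00). The labels do not say which exons the allele removes, so counts over the whole gene do not check the genotype. By Xist and Y-linked counts, gain replicates 1 and 3 and replicate 2 labelled L3mbtl3 -/- were female and the other 8 libraries male. The 3 GFP control libraries stood apart from each other: 16 genes of G2 and M phase summed to 1979, 1073 and 444 CPM in replicates 1, 2 and 3. All 12 apical progenitor markers and all 13 neuron markers were detected in every library.

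Ezh2, the main methyltransferase of dividing progenitors, was among the more abundant members and was not called in any comparison. Ezh2 had 329, 332 and 330.4 CPM in the L3mbtl3 gain libraries, against 349, 308 and 243 CPM in the GFP control libraries. In E12.5 tissue it had 343 and 375 CPM in the libraries labelled L3mbtl3 -/-, against 354 and 352 CPM in the heterozygous libraries and 350.1 CPM in the wild-type library. The gain libraries fell within 1.01 times of each other and inside the GFP control range, which spanned 1.43 times. The gain of L3mbtl3 was not called (log2 fold change 0.14, SE 0.136, adjusted p = 0.725), nor was the labelled knockout (log2 fold change 0.03, SE 0.0443, adjusted p = 0.782). Sorted GFP control cells lay below all 3 E12.5 controls, but the difference was not called (log2 fold change -0.23, SE 0.13, adjusted p = 0.169). It was called in 3 of 12 alternative analyses: without GFP control replicate 1, the library with the highest Ezh2 (log2 fold change -0.35, adjusted p = 0.0209), with library totals alone (-0.49, adjusted p = 0.0296) and with limma voom (-0.20, adjusted p = 0.00445). Without GFP control replicate 3, the lowest, it was -0.094 (adjusted p = 0.297).

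Ezh1, the paralogue with weaker catalytic activity, was higher in the sorted cells than in the tissue. Ezh1 had 34.4, 29.5 and 35.6 CPM in the L3mbtl3 gain libraries, against 27.7, 28.7 and 34.6 CPM in the GFP control libraries. The tissue level was 21.0 and 21.0 CPM in the libraries labelled L3mbtl3 -/-, against 20.6 and 21.2 CPM in the heterozygous libraries and 20.8 CPM in the wild-type library. All 6 sorted libraries exceeded all 5 tissue libraries, while the sorted groups overlapped each other. Ezh1 rose in the GFP control cells relative to the E12.5 controls (log2 fold change 0.54, SE 0.121, adjusted p = 0.00741). The call held in 11 of 12 alternative analyses and was missed with scaling by library totals alone (log2 fold change 0.27, adjusted p = 0.0581). Neither the gain (log2 fold change 0.14, SE 0.137, adjusted p = 0.738) nor the labelled knockout (log2 fold change 0.0095, SE 0.0698, adjusted p = 0.964) was called. Per kilobase of exon, Ezh1 averaged 4.08 CPM in GFP control cells and 2.81 CPM in E12.5 controls. Ezh2 on that scale averaged 48.4 CPM in GFP control cells and 56.8 CPM in E12.5 controls.

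**Figure D1:**
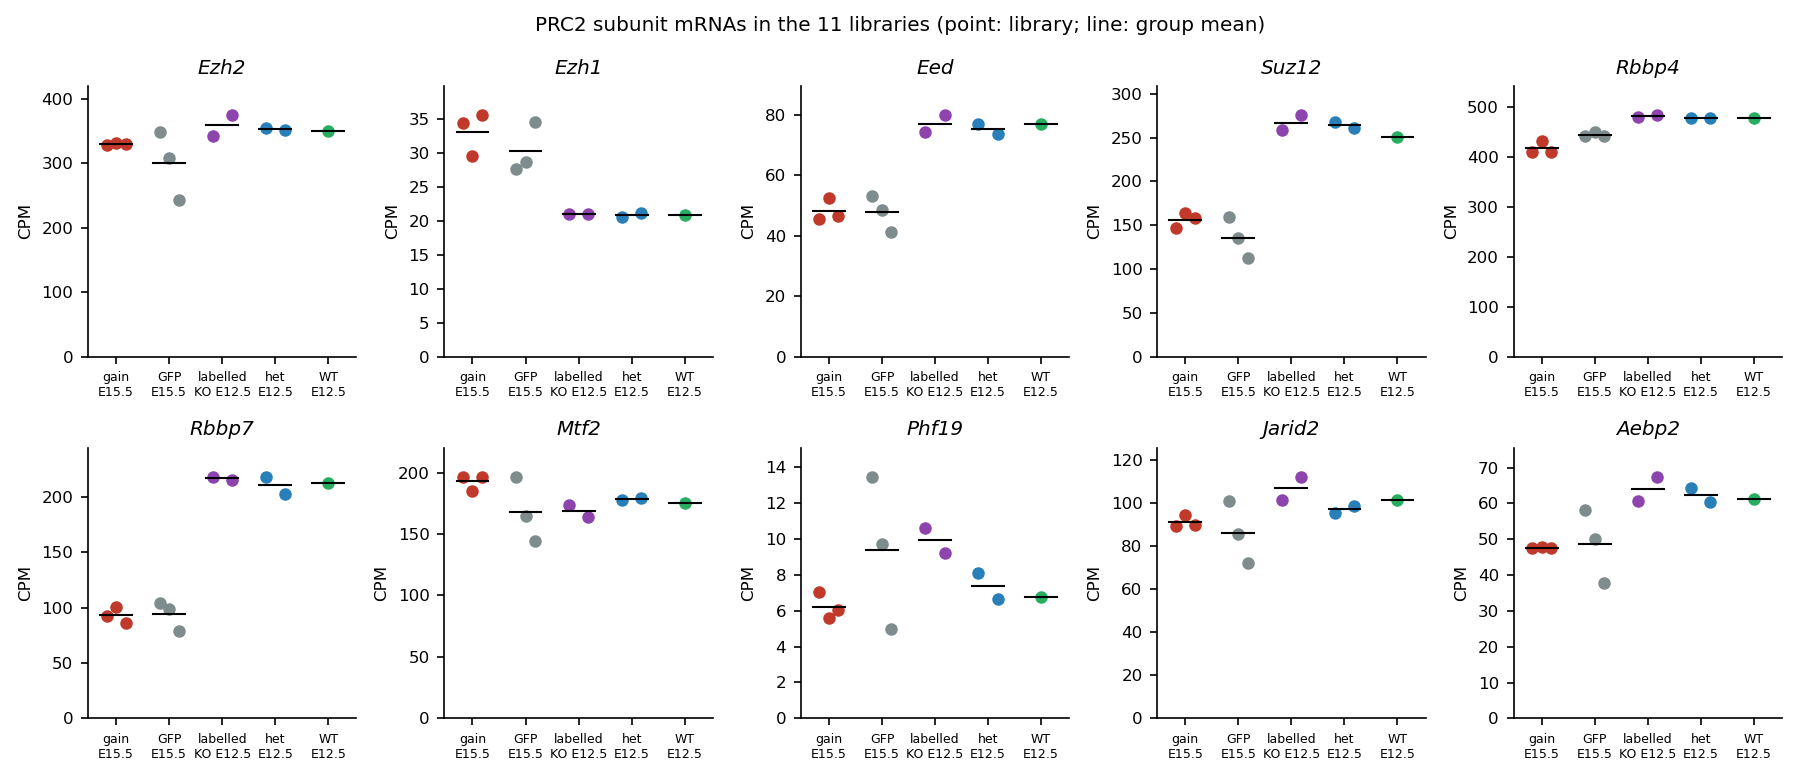
CPM of the 10 PRC2 genes (vertical axes from 0) in each library, by group, with a point per library and a line at the group mean. Ezh1 is higher and Suz12, Eed and Rbbp7 are lower in all 6 sorted E15.5 libraries than in all 5 E12.5 libraries, as are Rbbp4 and Aebp2 by less, while the sorted and tissue points of Ezh2, Jarid2, Mtf2 and Phf19 overlap.

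The balance of Ezh2 to Ezh1 was taken as the ratio of counts per kilobase within a library, which no scaling between libraries can change. Ezh2 exceeded Ezh1 by 11.5, 13.5 and 11.1 times in the gain libraries, and by 15.1, 12.9 and 8.44 times in the GFP control libraries. In E12.5 tissue the ratio was 19.6 and 21.4 in the libraries labelled L3mbtl3 -/-, against 20.7 and 19.9 in heterozygotes and 20.2 in the wild type. No sorted library reached the lowest tissue value. Ezh1 made up 6.20% to 10.6% of the summed Ezh2 and Ezh1 mRNA level per kilobase in sorted cells of both kinds, and 4.46% to 4.85% in tissue.

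On the log2 scale the balance averaged 3.57 ± 0.291 in the 6 sorted libraries and 4.35 ± 0.0506 in the 5 tissue libraries (SD). The difference of -0.77 had an exact two-sided permutation p of 0.004329, the smallest that 462 arrangements can give, and a Benjamini-Hochberg adjusted p of 0.0173 over the 4 balance comparisons. Leaving out each library in turn gave -0.84 to -0.68. GFP controls alone differed from E12.5 controls by -0.78, at an exact permutation p of 0.1, the smallest that 3 against 3 allows (adjusted p = 0.2). Age, electroporation and sorting differ together between these sets and cannot be told apart. For 72.5% of single genes the CPM ranges of GFP controls and E12.5 controls did not overlap. The share of gene pairs whose ratio separates the sets was not counted, so the separation cannot be called particular to Ezh2 and Ezh1. The gain libraries averaged 3.58 ± 0.149 and the GFP controls 3.56 ± 0.436 (SD, n = 3 each), a difference of 0.02 (exact permutation p = 1.0, smallest 0.1). The libraries labelled L3mbtl3 -/- averaged 4.36 ± 0.0913 (SD, n = 2) and the E12.5 controls 4.34 ± 0.0273 (SD, n = 3), a difference of 0.02 (exact permutation p = 0.8, smallest 0.2). The sign of both small differences turned when single libraries were left out. The gain difference reached -0.22 without GFP control replicate 3.

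**Figure D2:**
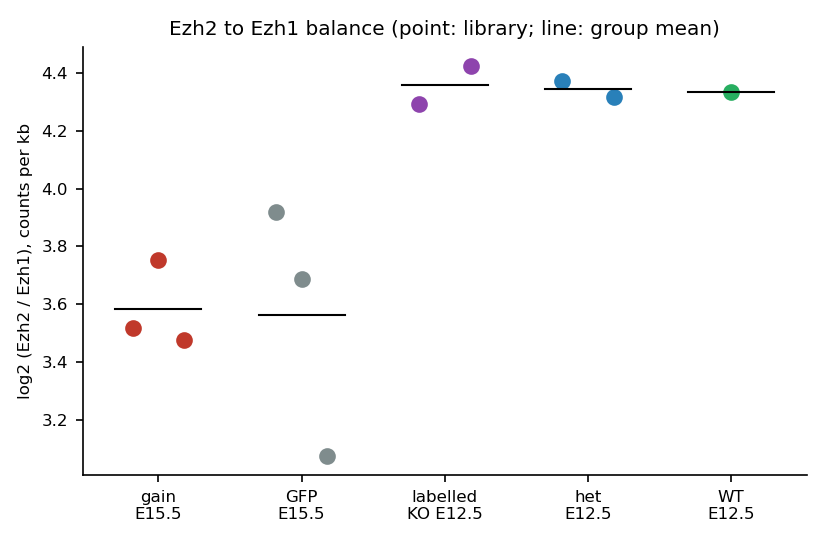
Log2 ratio of Ezh2 to Ezh1 in counts per kilobase (vertical axis, not starting at 0) for each library, by group, with lines at group means. The 6 sorted libraries lie between 3.08 and 3.92 and the 5 tissue libraries between 4.29 and 4.42; GFP control replicate 3 is the lowest.

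Suz12 and Eed, the scaffold partners of the enzyme, fell together in the sorted cells. Suz12 had 147, 164 and 158 CPM in the L3mbtl3 gain libraries, against 159, 135 and 112 CPM in the GFP control libraries. Its level at E12.5 was 259 and 276 CPM in the libraries labelled L3mbtl3 -/-, against 267 and 260.5 CPM in the heterozygous libraries and 251 CPM in the wild-type library. The sorted and tissue ranges were far apart, while gain overlapped GFP control and the labelled knockout overlapped the E12.5 controls. In GFP control cells relative to E12.5 controls Suz12 fell (log2 fold change -0.93, SE 0.129, adjusted p = 0.000991). Eed had 45.5, 52.4 and 46.4 CPM in the L3mbtl3 gain libraries, against 53.3, 48.5 and 41.4 CPM in the GFP control libraries. At E12.5 it reached 74.2 and 79.9 CPM in the libraries labelled L3mbtl3 -/-, against 77.0 and 73.7 CPM in the heterozygous libraries and 77.0 CPM in the wild-type library. Eed also fell in GFP control cells relative to E12.5 controls (log2 fold change -0.67, SE 0.106, adjusted p = 0.00179). Both calls held in all 12 alternative analyses. Neither gene was called with L3mbtl3 gain (Suz12: log2 fold change 0.21, SE 0.137, adjusted p = 0.643) or in the labelled knockout, where the log2 fold changes were 0.04 for Suz12 and 0.02 for Eed.

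Of the histone-binding paralogues, Rbbp7 fell in the sorted cells and Rbbp4 was not called. Rbbp7 had 92.4, 100.3 and 85.7 CPM in the L3mbtl3 gain libraries, against 104, 98.6 and 78.9 CPM in the GFP control libraries. In E12.5 tissue it had 218 and 215 CPM in the libraries labelled L3mbtl3 -/-, against 218 and 202 CPM in the heterozygous libraries and 212 CPM in the wild-type library. Rbbp7 showed the largest difference among the 10 members: it fell in GFP control cells relative to E12.5 controls (log2 fold change -1.17, SE 0.114, adjusted p = 0.000236), in all 12 alternatives. Rbbp4 ranged over 441 to 449 CPM in GFP control cells and 477 to 478 CPM in E12.5 controls and was not called (log2 fold change -0.10, SE 0.064, adjusted p = 0.206). The libraries labelled L3mbtl3 -/- had 480.4 and 484 CPM, just above those controls (log2 fold change 0.01, SE 0.0372, adjusted p = 0.881). In 2 of 12 alternatives Rbbp4 was called lower in GFP control cells than in E12.5 controls, with library totals alone (log2 fold change -0.37, adjusted p = 0.00316) and with DESeq2 (-0.14, adjusted p = 0.017). The Rbbp7 to Rbbp4 ratio per kilobase, given as a value without a test, was 0.668 in gain cells, 0.631 in GFP control cells, 1.35 in the labelled knockout and 1.33 in the E12.5 controls. Rbbp4 was the only member whose gain and GFP control ranges did not overlap, as for 16.6% of genes, at 409, 431 and 410.1 CPM in gain cells and 441, 449 and 441 CPM in GFP control cells (log2 fold change -0.08, SE 0.076, adjusted p = 0.719). Both proteins also serve in other chromatin complexes. Reads that the paralogues or processed copies share could be assigned to either, so the level of each is uncertain to that extent.

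Among the Polycomb-like subunits, Mtf2 was plentiful and Phf19 was the least abundant member. Mtf2 had 196, 185 and 197 CPM in the L3mbtl3 gain libraries, against 196, 164 and 144 CPM in the GFP control libraries. At E12.5 Mtf2 had 173 and 164 CPM in the libraries labelled L3mbtl3 -/-, against 178 and 179 CPM in the heterozygous libraries and 175 CPM in the wild-type library. Gain replicates 1 and 3 lay marginally above the highest GFP control library and gain replicate 2 lay between the controls. Mtf2 was not called with gain (log2 fold change 0.20, SE 0.125, adjusted p = 0.635), although limma voom with sample quality weights called it (log2 fold change 0.25, adjusted p = 0.0373). In the labelled knockout it was lower in both libraries, without a call (log2 fold change -0.07, SE 0.0386, adjusted p = 0.304). Phf19 had 7.06, 5.58 and 6.04 CPM in the L3mbtl3 gain libraries, against 13.5, 9.72 and 4.96 CPM in the GFP control libraries. Tissue libraries gave 10.6 and 9.22 CPM in the libraries labelled L3mbtl3 -/-, against 8.12 and 6.62 CPM in the heterozygous libraries and 6.74 CPM in the wild-type library. The counts behind Phf19 were 91 to 268 per library.

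Phf19 came closest to a difference in the labelled knockout, where both libraries exceeded all 3 controls (log2 fold change 0.46, SE 0.128, adjusted p = 0.0514). It was called in 3 of 12 alternatives: without a low-count filter (log2 fold change 0.46, adjusted p = 0.00444), with the replicate block (0.50, adjusted p = 0.0445) and without heterozygote replicate 1, the highest control (0.57, adjusted p = 0.0334). Without knockout replicate 1 it was 0.35 (adjusted p = 0.189), and with DESeq2 its adjusted p was 0.127. In gain cells Phf19 lay within the GFP control range, which spanned 2.72 times (log2 fold change -0.59, SE 0.355, adjusted p = 0.631). It was not called in GFP control cells relative to tissue (log2 fold change 0.39, SE 0.348, adjusted p = 0.358), where the value moved with single libraries: it was 0.028 without GFP control replicate 1 and 0.70 without GFP control replicate 3 (adjusted p = 0.0137). That comparison was called in 3 of 12 alternatives, the others being the replicate block (0.74, adjusted p = 0.00707) and voom (0.42, adjusted p = 0.0337). The block there joins sorted and tissue libraries by replicate number only.

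Jarid2, a DNA-binding subunit that lacks demethylase activity, and Aebp2, a zinc-finger subunit, had no called difference. Jarid2 had 89.5, 94.6 and 90.0 CPM in the L3mbtl3 gain libraries, against 101, 85.7 and 72.2 CPM in the GFP control libraries. At E12.5 Jarid2 had 101 and 112 CPM in the libraries labelled L3mbtl3 -/-, against 95.5 and 98.8 CPM in the heterozygous libraries and 102 CPM in the wild-type library. Aebp2 had 47.5, 47.9 and 47.4 CPM in the L3mbtl3 gain libraries, against 58.1, 50.2 and 37.8 CPM in the GFP control libraries. At E12.5 Aebp2 had 60.6 and 67.5 CPM in the libraries labelled L3mbtl3 -/-, against 64.2 and 60.3 CPM in the heterozygous libraries and 61.4 CPM in the wild-type library. In GFP control cells relative to tissue Jarid2 had a log2 fold change of -0.19 (adjusted p = 0.225) and Aebp2 of -0.34 (adjusted p = 0.0922), and both were called without GFP control replicate 1 (-0.32 and -0.50), with library totals alone and with voom. Aebp2 was also called with all 11 libraries in one fit (adjusted p = 0.0497), so Jarid2 was called in 3 and Aebp2 in 4 of 12 alternatives. Without GFP control replicate 3 Jarid2 was -0.072 (adjusted p = 0.488) and Aebp2 -0.19 (adjusted p = 0.0983). Jarid2 in the labelled knockout had a log2 fold change of 0.12 (adjusted p = 0.218), was called without knockout replicate 1 (0.19, adjusted p = 0.0353), and was 0.044 without knockout replicate 2 (adjusted p = 0.792) and 0.046 with the sex term (adjusted p = 0.774). The Mtf2 plus Phf19 level over the Jarid2 plus Aebp2 level, per kilobase and on the log2 scale, averaged 1.20 in gain cells and 1.08 in GFP control cells. It averaged 0.74 in the labelled knockout and 0.87 in E12.5 controls. The ratio leaves out Phf1, another Polycomb-like gene, which averaged 21.5 CPM per kilobase in GFP control cells and 5.82 in E12.5 controls.

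With L3mbtl3 gain, edgeR called 0 of 10 members, where 0.0136% of 14698 genes were called. None of the 10 had an unadjusted p under 0.05, against 8.6% of genes, and DESeq2 called 0. The groups did not overlap for 1 of 10 members, against 16.6% of genes. The median member log2 fold change was 0.05, beside -0.03 for all genes. In the labelled knockout edgeR called 0 of 10, where 7.41% of 16361 genes were called. There 2 members, Phf19 and Jarid2, had an unadjusted p under 0.05, against 22% of genes, and DESeq2 called 0. The ranges did not overlap for 3 of 10 (Phf19, Mtf2, Rbbp4), against 38.6% of genes, and the median was 0.03, beside 0.00 for all genes. These counts do not show that the members were unaltered.

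In GFP control cells relative to E12.5 controls, 4 of 10 members were called, 1 higher (31.1% of 15968 genes) and 3 lower (31.3%). Called in either direction were 62.3% of genes, so a share of 4 in 10 lies below the background in this fit. That order did not hold with library totals alone, with voom or without GFP control replicate 1, where more members were called. The ranges did not overlap for 7 of 10, against 72.5% of genes. The median member log2 fold change was -0.21, beside -0.02 for all genes. With library totals alone the median of all genes shifted to -0.30, with 3590 genes higher and 6525 lower, against 4963 higher and 4992 lower with TMM scaling. Relative to that shift, the values of Rbbp7 (-1.43), Suz12 (-1.20) and Eed (-0.93) under library totals remained below the median gene and that of Ezh1 (0.27) above it. In bulk samples, fewer cells of a type and less RNA per cell cannot be told apart.

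**Figure D3:**
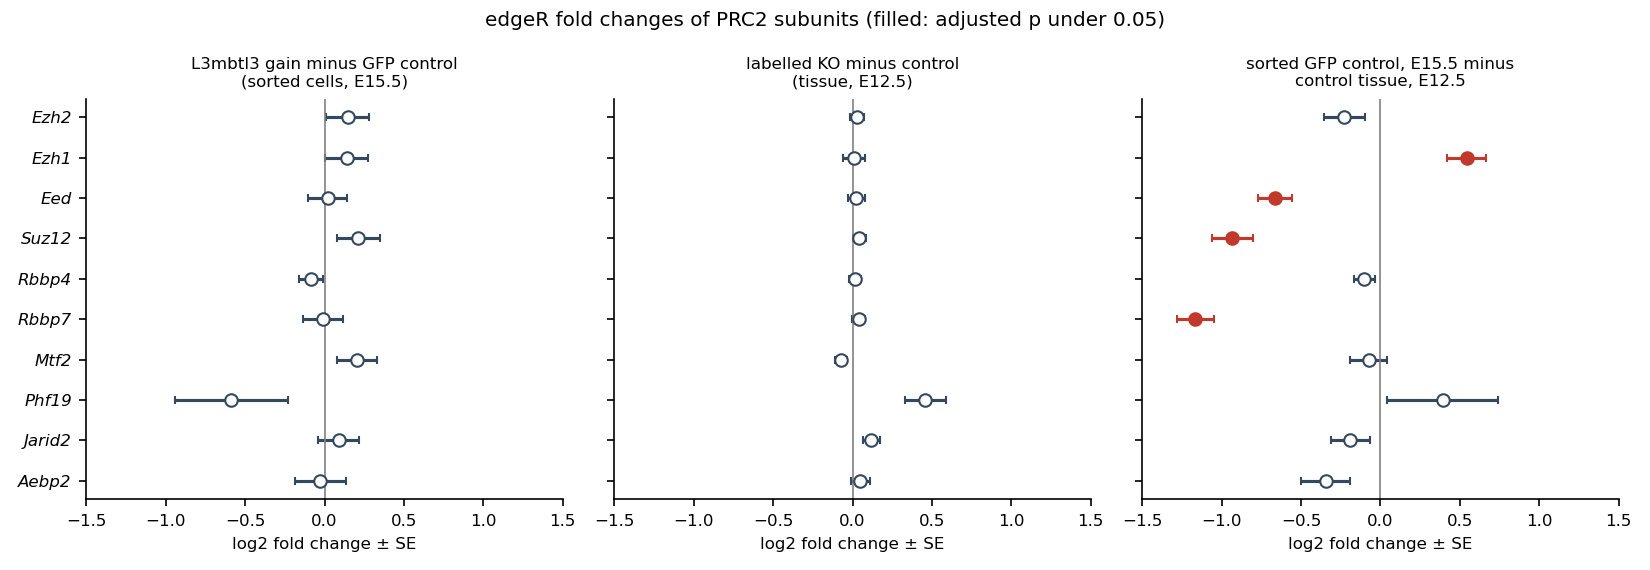
Log2 fold change ± SE of each member (rows) in the 3 comparisons (panels: L3mbtl3 gain over GFP control, labelled knockout over E12.5 control, sorted GFP control over E12.5 control tissue), with filled points where the adjusted p was under 0.05. Points for gain and labelled knockout are all open, and in the sorted GFP control cells Ezh1 (0.54) is filled on the right and Eed (-0.67), Suz12 (-0.93) and Rbbp7 (-1.17) on the left.

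Several members differed between the GFP control libraries in the order of the cell cycle genes, an order that some cell type marker lists shared or reversed. The 16 G2 and M phase genes summed to 1007, 1059.5 and 873 CPM in gain cells, 1979, 1073 and 444 CPM in GFP control cells, and 4446 to 4619 CPM in tissue. The 16 S phase genes summed to 892, 976 and 847 CPM in gain cells, 1481, 1081 and 693 CPM in GFP control cells, and 2830 to 3042 CPM in tissue. GFP control replicate 1 was the highest and replicate 3 the lowest for both lists. The same 2 libraries gave the highest and the lowest value within the group for 8 of 10 members, with ratios of 2.72 for Phf19, 1.54 for Aebp2, 1.43 for Ezh2, 1.42 for Suz12, 1.40 for Jarid2, 1.36 for Mtf2, 1.32 for Rbbp7 and 1.29 for Eed. Ezh1 ran the other way, highest in replicate 3 by 1.25 times, and Rbbp4 differed by 1.02 times. The share of all genes with the same 2 extremes was not counted, so 8 of 10 cannot be called particular to PRC2. Apical progenitor markers summed to 2332, 1772.5 and 1032 CPM in GFP control replicates 1, 2 and 3, and ventral telencephalon markers to 923, 311 and 26.0. Neuron markers ran in reverse, at 7003, 7754 and 9780 CPM. With 3 libraries the order of the cell cycle genes cannot be told apart from these. In GFP control cells relative to tissue, 15 of 16 S phase genes were called lower (median log2 fold change -1.45) and 16 of 16 G2 and M phase genes (median -1.73), where 31.3% of all genes were called lower (median of all genes -0.02), among them Mcm7 (-0.96), a helicase subunit, and Aurka (-1.63), a mitotic kinase. Of 13 neuron markers 11 were called higher (median 1.35), such as Dcx (1.68), against 31.1% of genes, and of 12 apical progenitor markers 8 were called lower, such as Nes (-1.99). The part of these shifts in the PRC2 values was not tested.

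**Figure D4:**
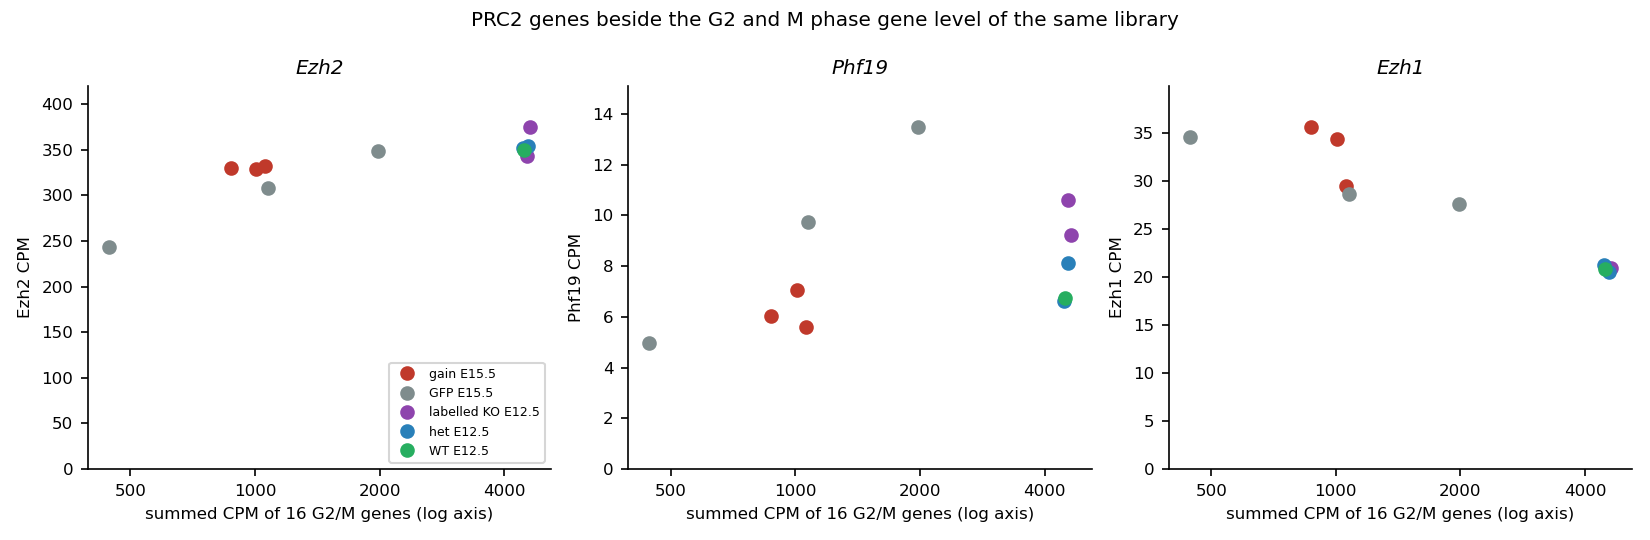
CPM of Ezh2, Phf19 and Ezh1 (vertical axes from 0) against the summed CPM of 16 G2 and M phase genes in the same library (log axis), with a point per library coloured by group. The 3 GFP control libraries spread over 444 to 1979 on the horizontal axis, with Ezh2 and Phf19 highest and Ezh1 lowest at 1979.

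Markers of other cells also set the sorted cells apart from tissue. Summed CPM of 10 endothelial markers was 12.9 to 17.7 in GFP control cells and 394 to 467 in E12.5 controls, with all 10 called lower and at most 1 of 10 at 0 counts in a GFP control library. The sum of 9 erythroid markers was 29.4 to 127.7 in GFP control cells and 2355 to 3079 in E12.5 controls, with all 9 called lower and 1 to 2 at 0 counts in each GFP control library. Of 8 meningeal fibroblast markers the sum was 12.51 to 67.9 in GFP control cells and 1631 to 1821 in E12.5 controls, and all 8 were called lower. The 8 choroid plexus markers summed to 281 to 284 CPM in the labelled knockout and 579 to 658 CPM in E12.5 controls, with 7 of 8 called lower, where 7.41% of genes were called in either direction. The 11 microglia markers summed to 7.64 to 11.1 CPM in gain cells, 19.8 to 47.7 in GFP control cells and 73.0 to 80.6 in E12.5 controls. With gain 0 of the 10 tested were called, and up to 2 had 3 counts or fewer in a gain library. In GFP control cells relative to E12.5 controls 5 of the 11 were called lower. Of all genes 31.3% were called lower in that comparison, the share to set beside this list and the endothelial, erythroid and fibroblast lists. Ventral telencephalon markers summed to 259, 247 and 28.4 CPM in gain cells and 923, 311 and 26.0 CPM in GFP control cells, and 4 of 10 were called higher in the labelled knockout. Of 8 intermediate progenitor markers 5 were called lower in the labelled knockout, such as Eomes (-0.38). The part of these cells in the PRC2 values was not tested.

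Accessory subunits outside the 10 gave values of their own. Phf1, the third Polycomb-like gene, had 54.8, 44.7 and 54.9 CPM in gain cells and 45.0, 51.6 and 59.9 CPM in GFP control cells. It had 15.0 and 15.2 CPM in the labelled knockout, against 13.2 and 15.6 CPM in heterozygotes and 13.6 CPM in the wild type. Phf1 thus rose in GFP control cells relative to E12.5 controls (log2 fold change 1.89, SE 0.142, adjusted p = 9.37e-05) in all 12 alternatives. Epop, a subunit that binds Elongin, rose there (log2 fold change 0.82, adjusted p = 0.0133), in 10 of 12 alternatives. The call was lost without heterozygote replicate 2 (adjusted p = 0.0507) and without the wild-type library (adjusted p = 0.054). Lcor (-0.74, adjusted p = 0.00547) and Lcorl (-0.67, adjusted p = 0.00778), whose loci encode PALI proteins, fell, and Skida1 (-0.24, adjusted p = 0.137) was called only without GFP control replicate 1 (-0.40, adjusted p = 0.00332), with voom or with library totals. Of these 5 genes, 0 were called with gain, against 0.0136% of all genes, or in the labelled knockout, against 7.41%. With so few genes these counts say little. In the knockout Skida1 (0.18) and Lcorl (-0.13) had unadjusted p values of 0.00536 and 0.0320, where 22% of genes were under 0.05. With gain none was under 0.05, against 8.6% of genes, and DESeq2 called 0 in both. Without knockout replicate 1, Skida1 (0.24, adjusted p = 0.0103) and Lcorl (-0.21, adjusted p = 0.0219) were called.

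The H3K27 demethylases, which remove the mark, split. Kdm6b had 263, 266 and 282 CPM in gain cells and 268, 243 and 244 CPM in GFP control cells, against 101 to 106 CPM in E12.5 controls, and rose in GFP control cells relative to those controls (log2 fold change 1.28, SE 0.0738, adjusted p = 4.07e-05). Kdm6a, on the X chromosome, had 85.4, 59.4 and 84.6 CPM in gain cells and 62.9, 49.5 and 40.9 CPM in GFP control cells. It had 78.1 and 121 CPM in the labelled knockout, against 82.5 and 81.9 CPM in heterozygotes and 77.0 CPM in the wild type. The female library was the higher of the labelled knockout pair, and the 2 female gain libraries exceeded the male one. Among the all-male GFP and E12.5 controls Kdm6a fell in GFP control cells (log2 fold change -0.65, SE 0.154, adjusted p = 0.00969). With gain it was not called (log2 fold change 0.59, SE 0.204, adjusted p = 0.551), although voom called it (0.64, adjusted p = 0.0334), and a term for embryo sex gave a log2 fold change of 0.22. In the labelled knockout it was not called (log2 fold change 0.31, adjusted p = 0.516), was called without the male knockout replicate 1 (0.59, adjusted p = 1.45e-05) and had -0.04 with the sex term. Uty, its Y-linked counterpart, also fell in GFP control cells relative to E12.5 controls (log2 fold change -0.75, adjusted p = 0.0151), a call lost without GFP control replicate 2 (adjusted p = 0.0614), without heterozygote replicate 1 (adjusted p = 0.051) and with all 11 libraries in one fit (adjusted p = 0.738).

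Loci that PRC2 is known to silence ranged widely in reads. Of 24 such genes, 14 had at most 3 counts in every library, among them all 9 Hox genes of the list, whose highest count was 2. Of all 46078 identifiers, 24219 had any count in the gain and GFP control libraries. The share of identifiers with at most 3 counts in every library was not counted, so 14 of 24 cannot be called particular to these loci. Cdkn2a, a cell cycle inhibitor locus repressed by PRC2 in many cells, had 0 to 5 counts. The highest counts among the 24 were those of Lhx9 (up to 1813), Isl1 (up to 1024) and Sox17 (up to 221). At 3 counts or fewer a level cannot be told from 0 at this depth. With gain 2 of the 24 could be tested, Lhx9 (log2 fold change -0.14, adjusted p = 0.953) and Isl1 (-1.15, adjusted p = 0.829), and neither was called. In the labelled knockout 8 could be tested: Pax7, a neural crest and dorsal midbrain gene, was higher, with 39 and 57 counts against 25, 13 and 22 in the E12.5 controls (log2 fold change 1.27, SE 0.268, adjusted p = 0.0157). The Pax7 call was lost without knockout replicate 2 (1.00, adjusted p = 0.160), without heterozygote replicate 2 (1.17, adjusted p = 0.0522), with the sex term (1.00, adjusted p = 0.136), with DESeq2 (adjusted p = 0.0581) and with all 11 libraries in one fit (adjusted p = 1.00). Lhx9, a homeobox gene of early cortical neurons and adjacent regions, was lower (-0.33, adjusted p = 0.00385), a call lost with all 11 libraries in one fit (adjusted p = 1.00). Lhx9 had 35, 8 and 17 counts in GFP control cells and 1813, 1120 and 1316 in E12.5 controls.

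Across the 11 libraries, likeness to the profile of Ezh2 was measured as the root mean square difference in centred log2 CPM among 14518 coding genes. Among the profiles nearest to Ezh2 were Hipk1 (0.0439), Slmap (0.0442), Ctnnb1 (0.0490) and Jarid2 (0.0518), and Jarid2 was the nearest of the other 9 members. Among these genes Aebp2 stood at rank 471, Mtf2 at 585, Rbbp4 at 810, Eed at 3253, Suz12 at 5330, Phf19 at 5399, Ezh1 at 7182 and Rbbp7 at 8634. The profiles nearest to Ezh1 were Ints10 (0.0690), Trpm4 (0.0698), Dpp7 (0.0727), Zfp952 (0.0729) and Golga2 (0.0769). Genes that vary little lie close to each other on this measure, and all profiles come from the same 11 libraries and share their depth.

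Compared per kilobase of exon, the order of members differed between the materials. In GFP control cells it ran Rbbp4 (50.8 CPM per kilobase), Ezh2 (48.4), Rbbp7 (32.3), Mtf2 (29.5), Suz12 (27.4), Eed (21.5), Jarid2 (8.88), Aebp2 (6.0), Ezh1 (4.08) and Phf19 (1.86). In E12.5 controls it ran Rbbp7 (72.5), Ezh2 (56.8), Rbbp4 (54.6), Suz12 (52.5), Eed (34.2), Mtf2 (31.1), Jarid2 (10.2), Aebp2 (7.64), Ezh1 (2.81) and Phf19 (1.42). Ezh1 and Phf19 were the least abundant in both. The exon lengths used are those of all annotated transcripts merged, so the levels between genes depend on which transcripts these cells use.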

How the data were processed

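Poly(A)-selected, stranded, single-end 75-base libraries were made with a Truseq kit, per the labels' protocols. The submitters' processing notes name CASAVA 1.9, FastQC 0.11.8, HISAT2 2.2.1, SAMtools 1.9, deepTools 3.3.0 and build GRCm38. The deposited values are raw gene counts made by the authors with featureCounts 2.0.1, with the reverse-strand setting and an Ensembl annotation, per the file headers; its release is not given in the sources used here. Each library's total was 16527551 to 26658718 counts, and a gene at 0 is limited to 3 counts (counting error only). Of 46078 identifiers, 935 had no symbol in the table used; Ezhip was not matched and gave no value. Samples of E14.5 cells named in the study's design were not analysed here.

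Counts were tested with edgeR 4.0.16 (quasi-likelihood, robust, TMM factors, filterByExpr, two-sided, Benjamini-Hochberg over all genes) in R 4.3.3, on the groups of each comparison. DESeq2 1.42.0 and limma 3.58.1 (voom) served as alternatives. SE is the absolute log2 fold change over the square root of F. CPM are on the scale of TMM factors over all 11 libraries, and fold changes use each comparison's own factors. The scripts were tested on counts simulated with the dispersion trend of the real libraries; a first simulation with gene-wise dispersions had given more false calls and was replaced. Replicates of a group all differed beyond sampling noise. Named genes were all 10 members, L3mbtl3, the other accessory subunits, the demethylases, up to 4 called members of each other list by smallest p, and the 5 nearest profiles to Ezh2 and to Ezh1, of which 1 is not reported here. Members and all 15 lists were chosen with earlier results of these data known. Further target loci were named by count after their values were seen, and the promoter search gained a further E2F form after a first run, which left the members' matches as they were.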

Additional observations from a re-analysis of the deposited data

How the results depend on the processing

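For L3mbtl3 gain, limma voom with quality weights called 1 member in place of 0, and the number of genes called (2) became 122 with DESeq2, 2120 with voom, 1 with a term for embryo sex, and 0 to 415 when single replicates were left out. The count was 415 without GFP control replicate 1 and 0 without GFP control replicate 2, where 693 genes had an unadjusted p under 0.05. For the labelled knockout, the members called (0) became 1 with no low-count filter and 0 to 1 when single replicates were left out. The genes called (1213) became 2266 with no filter, 6 with all 11 libraries in one fit, 654 with the sex term, and 603 (without wild-type replicate 1) to 1785 when single replicates were left out. They were 658 without knockout replicate 2 and 673 without heterozygote replicate 2. For GFP control cells against E12.5 controls, the members called (4) became 7 with library totals only, 8 with voom, and 4 to 8 when single replicates were left out. Of 15968 genes, library totals called 3590 higher and 6525 lower, and voom 6048 higher and 6348 lower. Without GFP control replicate 1, 5464 of 16364 genes were called higher and 5869 lower. In these settings the share of members called lay above that of all genes, unlike in the main fit. The cause of these changes was not tested. The Ezh2 to Ezh1 balance ranged over -0.22 to 0.20 for gain and -0.046 to 0.083 for the labelled knockout when single replicates were left out; it turned to -0.064 without gain replicate 2, to -0.22 without GFP control replicate 3 and to -0.046 without knockout replicate 2.

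Signs of uncalled members also turned. The sex term gave -0.037 for Ezh1 and 0.10 for Rbbp7 with gain, and -0.036 for Ezh2, -0.030 for Eed, -0.0022 for Suz12 and -0.029 for Aebp2 in the labelled knockout. Leaving out replicates gave, with gain, -0.074 to 0.12 for Eed, -0.12 to 0.086 for Rbbp7, -0.025 to 0.23 for Jarid2 and -0.18 to 0.14 for Aebp2. In the labelled knockout it gave -0.0027 to 0.019 for Ezh1, -0.038 to 0.092 for Ezh2, -0.032 to 0.075 for Eed, -0.0036 to 0.089 for Suz12 and -0.031 to 0.12 for Aebp2. It gave -0.20 to 0.030 for Mtf2 in GFP control cells against tissue. Of the other single-gene values, 328 kept their direction and side of the threshold, 21 gained a call and 1 lost it.

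Whether libraries of the same replicate number form pairs was not tested. Deviations of same-numbered gain and GFP control libraries correlated at 0.164, -0.00543 and 0.244. Gain replicates 1 and 3 correlated best with the GFP control library of their own number. Gain replicate 2 correlated best with GFP control replicate 1 (0.115). The same-numbered labelled knockout and heterozygote pairs gave -0.0123, and the other pairs of those groups 0.0123. With 2 libraries in each group, deviations from the group mean are opposite, so these values can differ only in sign. With the replicate block, 3 genes and 0 members were called for gain, 948 genes and 1 member (Phf19, log2 fold change 0.50, adjusted p = 0.0445) for the labelled knockout, and 10529 genes and 5 members for GFP control cells against tissue, where Mtf2 turned to 0.037. Against tissue the block joined sorted and tissue libraries by number only, with GFP control replicate 3 alone in its block, so that alternative carries little weight. Depth limits Phf19, with as few as 91 counts, and the target loci.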
